A study of Mus musculus with 4 samples.

Results

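The Dlk1-Meg3 imprinted cluster was followed in the 46C line of mouse embryonic stem cells, which carries GFP at the Sox1 locus, through 6 of its genes: Dlk1, Rtl1, Dio3, Meg3, Rian and Mirg. They were taken by name from the deposited transcript table, with all of their transcripts, and are 6 of 52327 gene names in the table. The rfISCs state was grown in PIF medium and is labelled as lying between rosette and formative pluripotency (2 libraries). The control was ESCs, the same line in 2i medium, in which inhibitors of MEK and of GSK3 hold cells in naive pluripotency (2 libraries). All 4 libraries were made from total RNA, from cells of 1 line with no genetic change between the states, and the labels do not spell out what PIF medium contains.

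In an imprinted cluster, the copy inherited from 1 parent is active and the copy from the other parent is silent. On mouse chromosome 12, Dlk1, Rtl1 and Dio3 are protein genes known to be active on the paternal copy, while Meg3, Rian and Mirg are non-coding RNAs known to be active on the maternal copy and to host small nucleolar RNAs and miRNAs. Methylation of a control region between Dlk1 and Meg3 sets the 2 patterns, and loss of the maternal RNAs in mouse pluripotent lines has been tied to poor developmental potential. In mouse annotation the order along the chromosome is Dlk1, Meg3, Rtl1, Rian, Mirg and Dio3, with Rtl1 on the minus strand and the other 5 on the plus strand. The table carries no information on alleles, so the parental names below are background.

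Total estimated counts were 21499590 and 23780989 in the rfISCs libraries and 19243701 and 21517544 in the ESCs libraries. The states were checked against marker genes. Naive markers (7 genes, among them Esrrb and Tfcp2l1) summed to 775 and 777 scaled counts (CPM, relative to the TMM-scaled library total) in rfISCs, against 3253 and 3318 CPM in ESCs, and all 7 were lower in rfISCs. Formative markers (4 genes, among them Otx2 and Fgf5) summed to 678 and 695 CPM in rfISCs, against 122 and 106 CPM in ESCs, and all 4 were higher. Shared pluripotency markers (3 genes) summed to 1046 and 1093 CPM in rfISCs, against 1629 and 1564 CPM in ESCs. Of these, Sall4 was higher in rfISCs, and 2 were lower (Pou5f1 and Sox2). Of 16355 genes tested with edgeR's quasi-likelihood test, 27.3% were higher and 26.4% lower in rfISCs at a Benjamini-Hochberg adjusted p under 0.05, so a call by itself is common here (53.7%).

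The maternal RNAs are precursors of many miRNAs, and a few of these show what the long transcripts below carry. RefSeq (GRCm38.p6) lists 57 miRNA genes on the plus strand between Dlk1 and Dio3. By the gene bounds of GENCODE M21, 2 lie within Meg3, 13 between Meg3 and Rian and 3 within Rian. Another 25 lie between Rian and Mirg and 14 within Mirg. They yield 105 mature miRNAs with 97 different seeds. The seed, bases 2 to 8, is in capitals. The first 4 sequences come from Mir337, whose gene name is carried by a measured transcript, and from Mir127 and Mir434, which lie opposite Rtl1.
mmu-miR-337-5p, chr12:109585818-109585839: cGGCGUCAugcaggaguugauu
mmu-miR-337-3p, chr12:109585850-109585871: uCAGCUCCuauaugaugccuuu
mmu-miR-127-3p, chr12:109592888-109592909: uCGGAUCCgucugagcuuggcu
mmu-miR-434-3p, chr12:109594565-109594586: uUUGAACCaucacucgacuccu
Of these, miR-127 is known in mouse for cutting the Rtl1 transcript, to which it is fully complementary. In all, 6 hairpins lie on the plus strand within the span of Rtl1 (Mir431, Mir433, Mir127, Mir434, Mir432 and Mir136).

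Just 8 seeds were shared, each by 2 miRNAs. These 3 pairs, all on the plus strand, join hairpins between Rian and Mirg with one another or with a hairpin inside Mirg.
mmu-miR-379-3p, chr12:109709102-109709123: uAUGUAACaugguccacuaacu
mmu-miR-411-3p, chr12:109710225-109710246: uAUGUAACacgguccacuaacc
mmu-miR-376b-5p, chr12:109723471-109723492: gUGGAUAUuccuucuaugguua
mmu-miR-376c-5p, chr12:109722733-109722754: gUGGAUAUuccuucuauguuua
mmu-miR-410-5p, chr12:109743729-109743749: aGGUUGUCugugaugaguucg
mmu-miR-494-5p, chr12:109715334-109715355: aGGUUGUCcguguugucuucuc
The libraries counted long transcripts. Of 78 miRNA and snoRNA genes of the cluster that the table lists, 2 had any count (Mir337, on a long transcript, and Gm24895), so the levels of the mature RNAs were not measured.

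The 250 bases before the annotated starts of Meg3, Dlk1 and Dio3 are shown because these genes differed in direction and size. Capitals mark TGACG (the core of the cAMP response element), TATAAA (a core promoter element read by the general factor TBP) and TGCCGC (the core bound by ZFP57 when methylated), each searched on both strands, and overlapping matches are marked as 1 run. All 3 stretches are on the plus strand of GRCm38.p6, from RefSeq.
Meg3 promoter, chr12:109540746-109540995: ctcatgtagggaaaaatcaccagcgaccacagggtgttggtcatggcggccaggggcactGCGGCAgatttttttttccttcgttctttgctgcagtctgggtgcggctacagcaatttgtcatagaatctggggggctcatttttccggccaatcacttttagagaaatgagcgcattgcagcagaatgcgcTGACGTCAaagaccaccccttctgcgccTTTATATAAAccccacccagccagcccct
Dlk1 promoter, chr12:109452573-109452822: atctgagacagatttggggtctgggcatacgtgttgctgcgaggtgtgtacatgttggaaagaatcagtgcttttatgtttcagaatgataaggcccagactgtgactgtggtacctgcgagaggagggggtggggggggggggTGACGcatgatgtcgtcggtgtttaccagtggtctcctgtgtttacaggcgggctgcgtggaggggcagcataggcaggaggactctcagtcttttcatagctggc
Dio3 promoter, chr12:110278980-110279229: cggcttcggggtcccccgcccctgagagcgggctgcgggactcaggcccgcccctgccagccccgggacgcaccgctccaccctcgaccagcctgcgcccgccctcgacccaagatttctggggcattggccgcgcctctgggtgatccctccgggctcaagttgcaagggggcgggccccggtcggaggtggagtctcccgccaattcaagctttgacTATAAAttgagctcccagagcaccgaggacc
The Meg3 stretch held TGACG 2 times, as the palindrome TGACGTCA, TATAAA 2 times in an overlapping pair near its end, and TGCCGC 1 time. Dlk1 held TGACG 1 time, and Dio3 held TATAAA 1 time. Among 32851 promoters of this length, 17.8% held TGACG, 12.4% TATAAA and 8.68% TGCCGC. Dio3 had 21 CG pairs and 69.6% G and C, Meg3 had 10 CG pairs and Dlk1 had 8, against a median of 6. The Rian and Mirg stretches held none of the motifs, with 0 and 10 CG pairs. The Mirg stretch, set by its RefSeq start, lies inside the GENCODE M21 span of Mirg used for the miRNAs above. These matches describe letters in the reference and not binding.

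In rfISCs the cluster took 0.329% and 0.317% of all counts with a gene name, against 0.242% and 0.203% in ESCs. Of the 6 members, 5 were higher in rfISCs and 1 was lower (edgeR, adjusted p under 0.05, background 27.3% higher and 26.4% lower). Their median log2 fold change was 0.62, against 0.00033 over all genes tested. The paternal genes held both the largest rise (Dlk1) and the fall (Dio3), and the maternal RNAs rose by 1.29-fold (Meg3) to 1.6-fold (Mirg). Replicates may be technical, as the labels do not say whether they came from separate cultures. In bulk RNA, more cells of a type and more RNA per cell cannot be told apart.

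**Figure D1:**
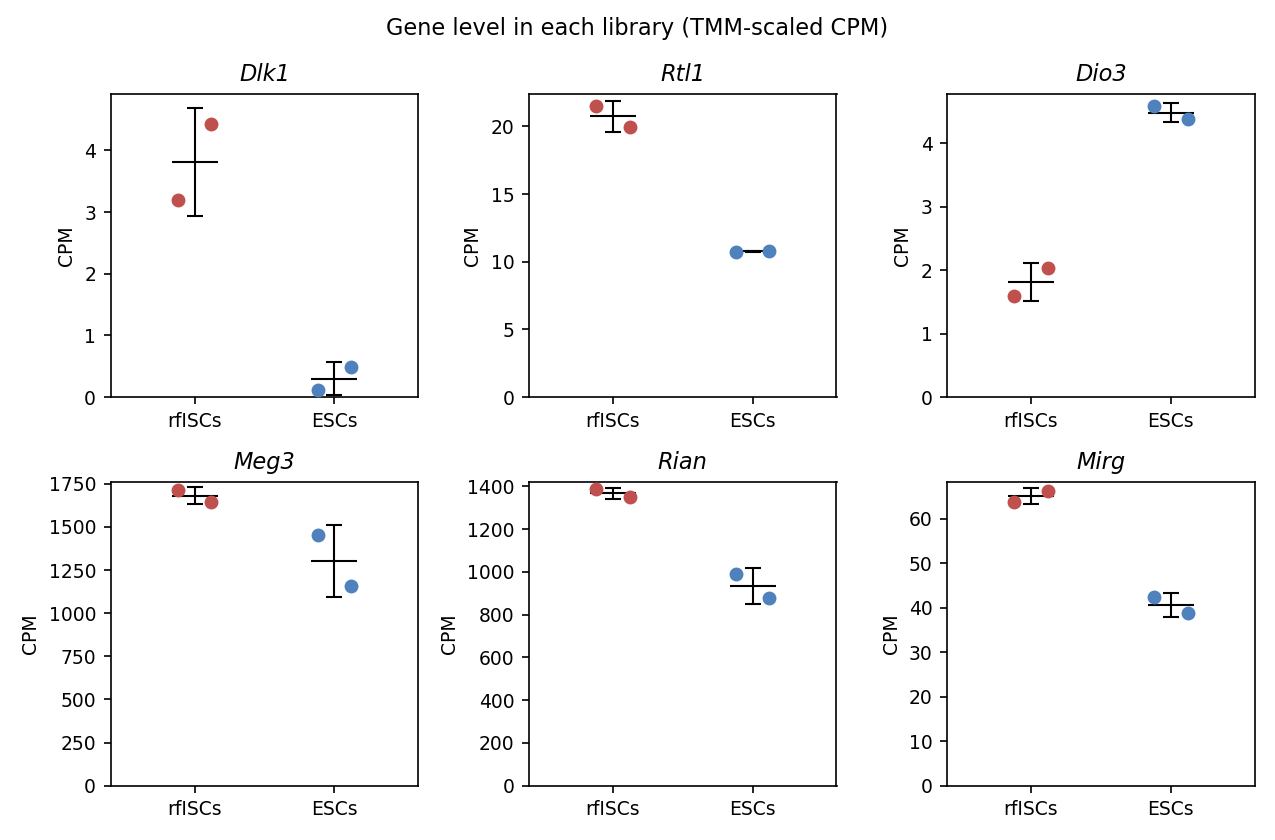
TMM-scaled CPM of each gene in the 2 rfISCs libraries (red points, left) and the 2 ESCs libraries (blue points, right), with the group mean as a wide bar and SD as whiskers. Dio3 is the gene that is lower in rfISCs (1.6 and 2.03 against 4.58 and 4.37 CPM), and the vertical scales differ.

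Dlk1 encodes a transmembrane protein related to the Notch ligands, which marks progenitor cells and restrains adipocyte differentiation. It had 70 and 107 counts in rfISCs, against 2 and 10 counts in ESCs, which is 3.20 and 4.43 CPM against 0.109 and 0.486 CPM. Both rfISCs libraries were well above both ESCs libraries, but the gene was scarce in either state. The mean was 3.82 ± 0.873 CPM in rfISCs and 0.297 ± 0.266 CPM in ESCs (SD, n = 2 each), and the log2 fold change was 3.62 with an SE of 0.53 (12.3-fold, edgeR adjusted p = 0.000358). With so few ESCs counts its size was loose: leaving out ESCs replicate 2 gave a log2 fold change of 5.06, and leaving out ESCs replicate 1 gave 2.96.

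Rtl1, a gene derived from a sushi-ichi retrotransposon that is needed in the capillaries of the mouse placenta, had 21.5 and 19.9 CPM in rfISCs, against 10.7 and 10.8 CPM in ESCs. Replicates were close in both states. The mean of 20.7 ± 1.14 CPM in rfISCs was 1.92 times the 10.8 ± 0.0304 CPM in ESCs, a log2 fold change of 0.94 with an SE of 0.12 (edgeR adjusted p = 0.000191). Almost all of its counts stood on 4 assembled transcripts, 100% and 94.3% in rfISCs and 100% and 100% in ESCs. Whether counting used strand is not given in the sources used here, so reads from Rtl1 and from the maternal RNA opposite it cannot be told apart.

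Dio3 encodes the deiodinase that inactivates thyroid hormones. It was the member that fell, to 1.6 and 2.03 CPM in rfISCs, against 4.58 and 4.37 CPM in ESCs. These rest on 35 and 49 counts in rfISCs and 84 and 90 counts in ESCs. The mean was 1.82 ± 0.305 CPM in rfISCs and 4.48 ± 0.148 CPM in ESCs, with a log2 fold change of -1.30 and an SE of 0.28 (2.45-fold lower, edgeR adjusted p = 0.00353). Limma on log2(TPM + 1) without a filter on low values missed the threshold (adjusted p = 0.0840).

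Meg3, a nuclear RNA whose loss in mouse derepresses the paternal genes of the cluster, was far more abundant. It had 1715 and 1647 CPM in rfISCs, against 1452 and 1155 CPM in ESCs. The ESCs libraries lay farther apart than the rfISCs libraries, and both lay below the rfISCs range. The mean was 1681 ± 48.2 CPM in rfISCs and 1304 ± 210 CPM in ESCs, a log2 fold change of 0.37 with an SE of 0.087 (1.29-fold, edgeR adjusted p = 0.00609). The log2 fold change was 0.21 when ESCs replicate 2 was left out and 0.54 when ESCs replicate 1 was. DESeq2 did not call Meg3 (adjusted p = 0.0551), nor did limma on log2(TPM + 1) (adjusted p = 0.0573).

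Rian, the host of a long array of C/D box small nucleolar RNAs, had 1386 and 1349 CPM in rfISCs, against 992 and 876 CPM in ESCs. The groups were separated by more than the spread within either. The mean was 1367 ± 26.3 CPM in rfISCs and 934 ± 82.3 CPM in ESCs, with a log2 fold change of 0.55 and an SE of 0.058 (1.46-fold, edgeR adjusted p = 4.72e-05).

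Mirg, which spans the last group of miRNA hairpins, had 63.7 and 66.2 CPM in rfISCs, against 42.4 and 38.7 CPM in ESCs. The mean was 65.0 ± 1.80 CPM in rfISCs and 40.6 ± 2.66 CPM in ESCs, with a log2 fold change of 0.68 and an SE of 0.081 (1.6-fold, edgeR adjusted p = 0.000103). Rises were not tested between the maternal RNAs, and with Ensembl transcripts alone the log2 fold changes were 0.56 for Meg3, 0.46 for Rian and 0.62 for Mirg.

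**Figure D2:**
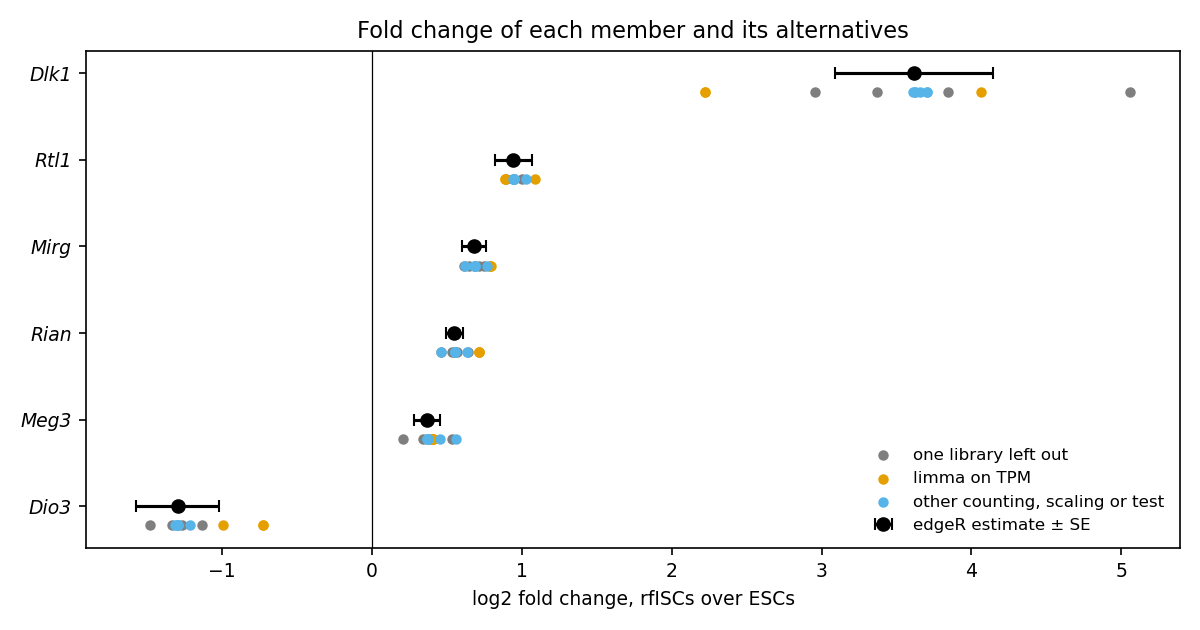
Log2 fold change of rfISCs over ESCs for each gene (black points, whiskers 1 SE, edgeR) and, below each, the values from other ways of counting, scaling or testing (blue), from limma on TPM (orange) and with 1 library left out (grey). All values of Dio3 lie below 0 and all those of the other 5 genes above 0, with the widest range for Dlk1.

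Relative levels within the cluster were compared per length, in TPM. In rfISCs the order was Rian (1002 and 945 TPM), Meg3 (916 and 891 TPM), Mirg (95.2 and 99.9 TPM), Rtl1 (5.88 and 5.53 TPM), Dlk1 (5.44 and 3.75 TPM) and Dio3 (1.5 and 1.81 TPM), and no neighbours in this order overlapped. In ESCs it was Meg3 (776 and 599 TPM), Rian (632 and 555 TPM), Mirg (57.2 and 55.0 TPM), Dio3 (3.16 and 3.63 TPM), Rtl1 (2.45 and 2.81 TPM) and Dlk1 (0.10 and 0.28 TPM), where Meg3 and Rian overlapped. Dio3 was therefore the highest of the paternal genes in ESCs and the lowest in rfISCs. Rian and Meg3 ranked 156 and 169 of all gene names by mean TPM in rfISCs, against 234 and 205 in ESCs. Dlk1 ranked 10744 in rfISCs and 18229 in ESCs. In rfISCs replicate 1, 2.85 of its 5.44 TPM stood on a 483-base transcript with 10.7 estimated counts, which had 0 in every other library. The TPM level of Dlk1 thus depends on how few reads were divided.

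The balance within the cluster was summed by parent. The 3 maternal RNAs together had 3165 and 3062 CPM in rfISCs, against 2487 and 2069 CPM in ESCs, a ratio of means of 1.37. The 3 paternal genes together had 26.3 and 26.4 CPM in rfISCs, against 15.4 and 15.6 CPM in ESCs, a ratio of 1.70, in which Rtl1 outweighs the other 2. The maternal share of the cluster was 99.17% and 99.15% in rfISCs, against 99.38% and 99.25% in ESCs, a difference of -0.16 percentage points. Each of these 3 comparisons gave p = 0.333 in a two-sided exact permutation test, the smallest value that 2 libraries per group allow. With Ensembl transcripts alone, which removes nearly all Rtl1 counts, the difference in maternal share turned to 0.039 percentage points and the paternal ratio was 1.30. There the paternal sums overlapped, with 4.80 and 7.61 CPM in rfISCs, against 4.69 and 4.86 CPM in ESCs (exact permutation p = 0.667). The maternal shares overlapped too (99.69% and 99.49% in rfISCs, against 99.60% and 99.50% in ESCs).

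Set against Meg3 within each library, Rian had 80.8 and 81.9 counts per 100 Meg3 counts in rfISCs, against 68.3 and 75.8 in ESCs. Mirg had 3.71 and 4.02 per 100 in rfISCs, against 2.92 and 3.35 in ESCs. Rtl1 had 1.26 and 1.21 per 100 in rfISCs, against 0.740 and 0.934 in ESCs. Dlk1 had 0.187 and 0.269 per 100 in rfISCs, against 0.00751 and 0.0421 in ESCs. Dio3 went the other way, with 0.0933 and 0.123 per 100 in rfISCs, against 0.316 and 0.379 in ESCs. For all 5 the exact two-sided permutation p was 0.333, the smallest possible with 2 libraries per group.

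The 6 genes have 134 transcripts in the table, 105 from Ensembl and 29 assembled by the authors. Of these, 8 had no count, 116 had at least 10 counts over the 4 libraries and 96 passed the filter on low counts. Of the 96, 3 were called, all higher in rfISCs (edgeR adjusted p under 0.05), which is near the background of 3.68% of all 50163 transcripts tested (1.74% higher, 1.94% lower). At an unadjusted p under 0.05, 21 of the 96 were higher and 1 was lower, against 11.9% higher and 10.9% lower among all transcripts tested. DESeq2 called 20 of the 96, all higher, against 22.6% of all transcripts (11.9% higher). With a replicate block edgeR called 0 of the 96, but it called 0 of all 50163 transcripts in that fit too. There 17 of the 96 were higher at an unadjusted p under 0.05, and the share over all transcripts was not counted. In the main test the median log2 fold change was 0.50, against 0.026 over all transcripts tested, and 75 of the 96 were above 0. The share above 0 over all transcripts was not counted. Of the 96, 58 were of Rian and 19 of Meg3. Transcripts of 1 gene divide the same reads, so they are not separate results. In the authors' deposited table, 22 of the 134 had an adjusted p under 0.05, against 6.81% of all 160308 transcripts. The authors' deposited table flagged 4 of them (1 of Dlk1, 3 of Rian), against 2.33% of all 160308. Of the transcripts with a gene name, 94075 had at least 1 count, so many of the 160308 had none, against 8 of the 134. These shares are therefore not like for like. Every flag there had a fold of at least 5.0 in either direction. The 3 flagged Rian transcripts had 91.4, 48.0 and 46.0 estimated counts over the 4 libraries, with 0 in both ESCs libraries. Their folds therefore rest on few counts.

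**Figure D3:**
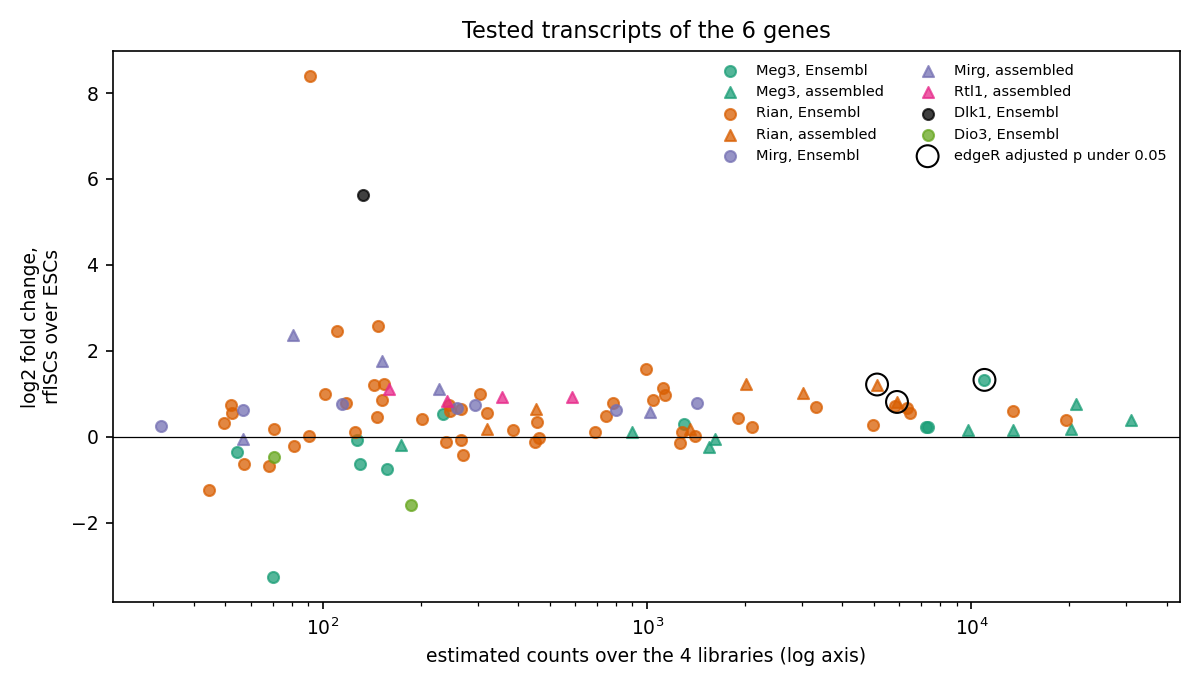
Log2 fold change (rfISCs over ESCs) of the 96 tested transcripts against their estimated counts summed over 4 libraries (log axis), coloured by gene, with circles for Ensembl and triangles for assembled transcripts. The 3 ringed transcripts, 1 of Meg3 and 2 of Rian, are the ones called by edgeR, and values spread widely below about 200 counts.

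The called Meg3 transcript was ENSMUST00000146701, the longest Ensembl transcript of the gene at 14548 bases. It had 4076 and 4086 estimated counts in rfISCs, against 1554 and 1259 in ESCs. Its log2 fold change was 1.32 (2.50-fold, edgeR adjusted p = 0.0498), and its share of Meg3 counts was 10.9% and 10.3% in rfISCs, against 5.84% and 5.30% in ESCs. An assembled transcript of like length, MSTRG.5897.4 of 14579 bases, had 72.8 estimated counts in rfISCs replicate 1 and 0 in the other 3 libraries. The most counted Meg3 transcript, MSTRG.5897.13 of 4384 bases, held 22.8% and 25.8% of Meg3 counts in rfISCs, against 24.4% and 24.6% in ESCs, with a log2 fold change of 0.39 (edgeR adjusted p = 0.173). The next, MSTRG.5897.15 of 4640 bases, held 19.6% and 16.7% in rfISCs, against 14.4% and 13.6% in ESCs (log2 fold change 0.77, edgeR adjusted p = 0.104). With the 14548-base transcript left out, which was tried after its values were seen, Meg3 had 1528 and 1477 CPM in rfISCs, against 1368 and 1094 CPM in ESCs. That is a log2 fold change of 0.29 with an SE of 0.085 (edgeR adjusted p = 0.0176). Division of reads among overlapping transcripts was made in the authors' processing, so these shares are estimates.

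**Figure D4:**
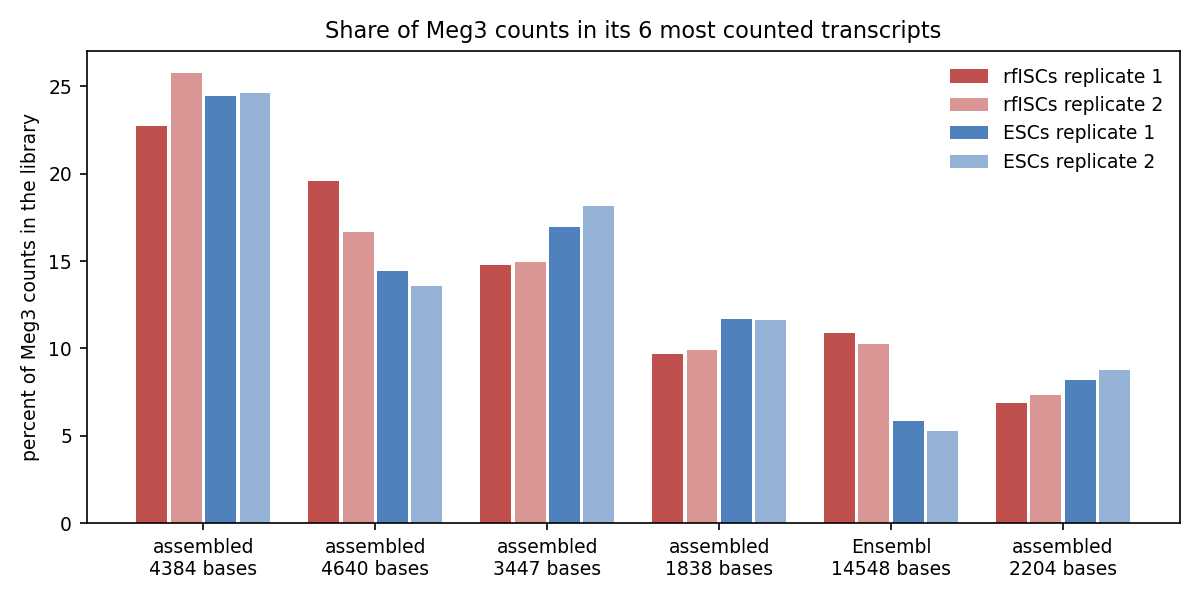
Share of Meg3 counts, in percent, held by its 6 most counted transcripts in each rfISCs library (red shades) and ESCs library (blue shades), 1 bar per library. The 14548-base transcript takes 10.9% and 10.3% in rfISCs, against 5.84% and 5.30% in ESCs.

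Rian had 79 transcripts, 58 tested, and 48 of these had a log2 fold change above 0. Both called ones were assembled. MSTRG.5947.5, of 4901 bases, had 1849 and 2096 estimated counts in rfISCs, against 909 and 1042 in ESCs (log2 fold change 0.81, edgeR adjusted p = 0.0310). MSTRG.5947.10, of 4971 bases, had 1700 and 2027 in rfISCs, against 630 and 761 in ESCs (log2 fold change 1.21, edgeR adjusted p = 0.0283). The most counted, ENSMUST00000238384, had 5558 and 6222 estimated counts in rfISCs, against 3978 and 3818 in ESCs, and a log2 fold change of 0.38 (edgeR adjusted p = 0.0968). The second, ENSMUST00000181253, had 4080 and 4509 in rfISCs, against 2480 and 2394 in ESCs, and a log2 fold change of 0.61 (edgeR adjusted p = 0.0530). Assembled transcripts held 19.7% and 20.1% of Rian counts in rfISCs, against 15.1% and 16.3% in ESCs.

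Mirg had 17 transcripts, 12 of them tested and none called by edgeR, with 1 higher at an unadjusted p under 0.05 and 1 called by DESeq2. The most counted, ENSMUST00000181543, had 431 and 516 estimated counts in rfISCs, against 273 and 201 in ESCs (log2 fold change 0.77, edgeR adjusted p = 0.195). The next, MSTRG.5912.11, had 271 and 372 in rfISCs, against 168 and 206 in ESCs. In the 12 tested transcripts the log2 fold change ran between -0.063 and 2.36.

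Dlk1 had 10 transcripts, of which 1 was tested. That transcript, ENSMUST00000109844, had 47.0 and 84.1 estimated counts in rfISCs, against 1.90 and 0 in ESCs, and held 67.2% and 78.6% of Dlk1 counts in rfISCs. EdgeR did not call it (adjusted p = 0.108), DESeq2 did (adjusted p = 7.64e-05), and it had an adjusted p of 0.00016 in the authors' deposited table. In ESCs replicate 2, where Dlk1 had 10 counts, 7.81 stood on ENSMUST00000173539, which had 0 in rfISCs replicate 1 and 18.6 in rfISCs replicate 2. Of the 2 Dio3 transcripts, ENSMUST00000173014 had 20.02 and 32.65 estimated counts in rfISCs, against 84.0 and 50.9 in ESCs. ENSMUST00000097228 had 15.0 and 16.4 in rfISCs, against 0 and 39.2 in ESCs, so the ESCs libraries disagreed on how Dio3 reads were divided. Among the 4 assembled Rtl1 transcripts tested, the log2 fold change ran between 0.84 and 1.12 and none was called by edgeR, at an unadjusted p under 0.05 or by DESeq2. MSTRG.5941.1, of 8711 bases, had 209 and 196 in rfISCs, against 123 and 58.1 in ESCs.

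Few other RNAs annotated inside the cluster had counts. Mouse annotation (GENCODE M21) lists 112 further genes between Dlk1 and Dio3, of which 95 are in the table, 7 had counts and 4 were tested. Mir337 had 522 and 527 counts in rfISCs, against 213 and 165 in ESCs, a log2 fold change of 1.22 (2.34-fold, edgeR adjusted p = 0.000278). All of these counts stood on 1 assembled transcript of 12454 bases, and the 97-base hairpin was at 0. Dio3os, an RNA from the opposite strand beside Dio3, had 5 and 1 counts in rfISCs, against 11 and 12 in ESCs. Its log2 fold change of -2.12 passed narrowly (edgeR adjusted p = 0.0465) and was lost in DESeq2 (adjusted p = 0.190) and on leaving out any 1 library. B830012L14Rik had 58 and 69 counts in rfISCs, against 38 and 38 in ESCs, and was not called (log2 fold change 0.49, edgeR adjusted p = 0.207).

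Genes on both sides were taken from a list. Of 25 tested, 12 were higher, 4 lower and 9 not called in rfISCs (edgeR; background 27.3% and 26.4%), with a median log2 fold change of 0.29. Begain, the nearest listed gene before Dlk1, had 1.46 and 1.49 CPM in rfISCs, against 0.273 and 0.194 CPM in ESCs (log2 fold change 2.64, edgeR adjusted p = 0.00259). Wdr25 next to it was not called (log2 fold change 0.48, edgeR adjusted p = 0.0640). Ppp2r5c, the nearest listed gene after Dio3, fell by 0.27 on the log2 scale (edgeR adjusted p = 0.00256), which limma on log2(TPM + 1) did not call (adjusted p = 0.171). Farther out, Eml1, a microtubule-binding protein gene, had 38.2 and 40.9 CPM in rfISCs, against 0.818 and 1.65 CPM in ESCs (31.4-fold). Mok, a kinase gene, had 22.9 and 21.8 CPM in rfISCs, against 62.0 and 61.8 CPM in ESCs (2.76-fold lower). Hsp90aa1, a chaperone gene, had 2358 and 2468 CPM in rfISCs, against 4226 and 4162 CPM in ESCs (1.74-fold lower). Split by side after the values were seen, 8 of the 13 listed genes before Dlk1 were higher and none lower (none lower at an unadjusted p under 0.05 or by DESeq2), with 4 higher without rfISCs replicate 1 and 5 with Ensembl transcripts alone. Of the 12 after Dio3, 4 were higher and 4 lower.

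**Figure D5:**
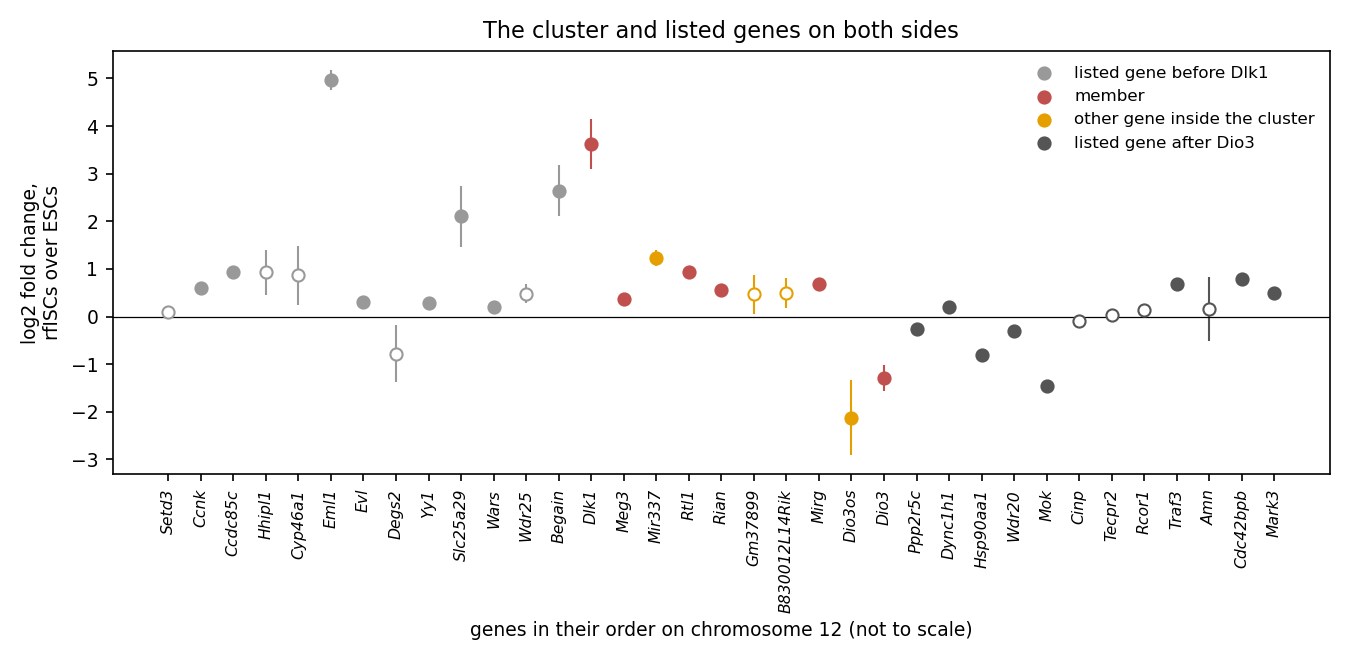
Log2 fold change of rfISCs over ESCs (whiskers 1 SE) for listed genes, the 6 members and other tested genes inside the cluster, in their order on chromosome 12, not to scale. Filled points passed an edgeR adjusted p under 0.05 and open points did not. Fold changes run from 4.97 at Eml1 to -2.12 at Dio3os on the log2 scale, and Dio3 and Dio3os lie below 0 at the end of the cluster.

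Among 27 genes of imprint protection and DNA methylation, all tested, 12 were higher, 8 lower and 7 not called (median 0.11). For this and each list below, the background over all genes tested is 27.3% higher and 26.4% lower (edgeR). Dnmt3b, which adds new DNA methylation, had 509 and 517 CPM in rfISCs, against 93.8 and 87.6 CPM in ESCs (5.66-fold), and Aff3, which binds the control region of this cluster in mouse stem cells, had 35.6 and 30.5 CPM in rfISCs, against 9.66 and 8.16 CPM in ESCs (3.72-fold). Tet2, which oxidises methylated cytosine, had 42.1 and 46.0 CPM in rfISCs, against 246 and 259 CPM in ESCs (5.73-fold lower). Zfp42, a zinc finger gene of naive cells, was 3.02-fold lower. These 4 had edgeR adjusted p-values of 3.64e-06 or below. Among 8 polycomb genes, whose products have been reported to bind Meg3 RNA or to work with those that do, 3 were higher (Rbbp7 1.36-fold, Rbbp4 1.36-fold), 3 lower (Mtf2 2.50-fold, Eed 1.90-fold) and 2 not called, with a median of -0.06.

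Imprinted genes of other clusters were read beside the same background (27.3% higher, 26.4% lower). Of 19 tested genes listed as maternally expressed, 10 were higher, 5 lower and 4 not called (median log2 fold change 0.38). The parental class of each listed gene was not checked here. H19, a non-coding RNA, had 266 and 274 CPM in rfISCs, against 2.40 and 3.74 CPM in ESCs (86.8-fold), and Ano1, a chloride channel gene, was 12.4-fold higher. Cobl, an actin nucleator gene, was 4.30-fold lower and Phlda2, which limits placental growth, 2.05-fold lower. Of 25 tested genes listed as paternally expressed, 14 were higher, 4 lower and 7 not called (median 0.89). Igf2, a growth factor gene beside H19, had 84.9 and 82.8 CPM in rfISCs, against 1.42 and 0.777 CPM in ESCs (77.2-fold), and Nnat was 15.2-fold higher. Plagl1, a zinc finger gene of growth control, was 4.2-fold lower and Zfp264 3.07-fold lower, though Zfp264 turned to a log2 fold change of 0.86, not called, with Ensembl transcripts alone. All these had edgeR adjusted p-values of 0.000165 or below.

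Rtl1's relatives from the same retrotransposon family were 6 higher, none lower (at an unadjusted p under 0.05 and by DESeq2 none too) and 2 not called of 8 tested, with a median log2 fold change of 1.37. The background for the lists in this paragraph is again 27.3% higher and 26.4% lower (edgeR). Rtl6 had 16 and 18.2 CPM in rfISCs, against 4.2 and 4.47 CPM in ESCs (3.93-fold), and Rtl5 had 40 and 33 counts in rfISCs, against 3 and 0 in ESCs. Of 21 tested genes of thyroid hormone handling besides Dio3, 9 were higher, 8 lower and 4 not called (median -0.09). Rxrg, a partner of the hormone receptors, had 19 and 13 counts in rfISCs and 0 in both ESCs libraries. Slc3a2, a subunit of amino acid transporters that carry thyroid hormone, was 2.36-fold lower, and Thrsp, a hormone-responsive gene, had 19 and 12 counts in rfISCs, against 34 and 84 in ESCs. Of 12 genes of miRNA processing, 5 were higher, 2 lower and 5 not called (median 0.14), with Dicer1, which cuts hairpins to mature length, 1.48-fold higher (but at a log2 fold change of -0.40, not called, with Ensembl transcripts alone) and Prkra, a partner of it, 2.07-fold higher. Ago3 and Ddx17 were the 2 lower, by 0.29 and 0.17 on the log2 scale, and each was lost under several alternatives. Without rfISCs replicate 2, 4 of the 12 were called in all.

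Markers of other cell types were read beside the background of 27.3% of genes higher and 26.4% lower (edgeR). The rises were not shared by all of them. The 9 mesenchyme and feeder markers summed to 18.1 and 17.8 CPM in rfISCs, against 6.33 and 9.43 CPM in ESCs. Of these, 5 were tested and 4 were higher, 1 was at 0 in rfISCs (Lum) and 5 were at 0 in ESCs (Col3a1, Dcn, Lum, Postn and Prrx1). Col1a1 had 3.57 and 3.65 CPM in rfISCs, against 0.164 and 0.486 CPM in ESCs. Thy1 had 7.77 and 8.25 CPM in rfISCs, against 5.07 and 7.77 CPM in ESCs. The 7 neural markers summed to 302 and 303 CPM in rfISCs, against 176 and 141 CPM in ESCs, all 7 were higher, and Dcx was at 0 in ESCs. Sox1 had 38.2 and 35.3 CPM in rfISCs, against 1.80 and 1.26 CPM in ESCs. Pax6 had 25.2 and 26.5 CPM in rfISCs, against 2.35 and 0.729 CPM in ESCs. The 6 primitive endoderm markers summed to 19.6 and 17.4 CPM in rfISCs, against 4.31 and 5.0 CPM in ESCs, with 3 of 4 tested higher. Among them, Dab2 had 189 and 197 counts in rfISCs, against 7 and 4 in ESCs. Foxa2 had 34 and 71 counts in rfISCs, against 1 and 3 in ESCs. Gata6 had 1 and 4 counts in rfISCs, against 3 and 2 in ESCs. Sox17 had 0 and 2 counts in rfISCs, against 3 and 2 in ESCs. The 6 trophoblast markers summed to 11.6 and 12.3 CPM in rfISCs, against 5.15 and 5.68 CPM in ESCs, with 2 of 3 tested higher. Gata3 had 3.29 and 3.36 CPM in rfISCs, against 0.109 and 0.292 CPM in ESCs. Tfap2a had 3.89 and 5.06 CPM in rfISCs, against 4.55 and 4.32 CPM in ESCs. The 4 muscle markers summed to 7.86 and 8.25 CPM in rfISCs, against 4.47 and 5.49 CPM in ESCs, nearly all of it Des. Myf5 was at 0 in both states and Myod1 in ESCs. The part of such cells in the Dlk1 and Rtl1 results was not tested.

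The genes whose levels over the 4 libraries were nearest to each member were sought among 13748 tested genes, by the distance between log2(CPM + 1) values. For Dlk1 they were Gfra1 (distance 0.19), Col1a1 (0.27) and Agap2 (0.33), and for Rtl1 they were Pced1a (0.15), Zfp113 (0.17) and Whrn (0.19). For Dio3 they were Prrg1 (0.12), Saysd1 (0.15) and Mpzl3 (0.21). For Meg3 they were Ppia (0.36), Pabpc1 (0.38) and Tuba1a (0.42), for Rian they were Ipo5 (0.26), Nap1l1 (0.29) and Eif4g2 (0.35), and for Mirg they were Mlxip (0.067), Cactin (0.089) and Wbp1l (0.094). None of the members was among the 3 nearest genes of another. The distance depends on absolute level, which differs widely among the members, so it does not show whether they change alike.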

How the data were processed

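RNA was extracted with Trizol and sequenced on an Illumina NovaSeq X Plus, per the labels' protocols. The authors deposited 1 table of 160308 transcripts (142434 with an Ensembl ID, 17874 assembled). Its estimated counts, which hold decimals, and its TPM per library were deposited by the authors, as were their ratio of rfISCs to ESCs, its log2 and their p-value and adjusted p-value, per the file headers. Bowtie 0.12.2 and build mm9 are named in the submitters' processing notes, with no role given. The assembler, the counting tool and its use of strand are not given in the sources used here. All coordinates come from RefSeq and GENCODE M21 and were not read from the table. Of the table's Ensembl IDs, 97.1% are in GENCODE M21, and of those of the 6 genes 57 of 105 are.

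Estimated counts were summed by gene name, rounded and filtered with filterByExpr (minimum count 10), which left 16355 genes. The 3382 transcripts with no gene name (1.27% and 1.22% of rfISCs counts, 1.58% and 1.62% of ESCs counts) took no part. Genes were tested by quasi-likelihood in edgeR 4.0.16 (R 4.3.3), with TMM scaling and the group as its model term, adjusted over all genes, and likewise over 50163 transcripts. It was tested on simulated data. CPM values use TMM-scaled totals. Replicates differed by more than sampling noise (chi-square per degree of freedom 4.55 for rfISCs and 6.71 for ESCs). Alternatives were DESeq2 1.42.0, edgeR with the size factors of DESeq2, edgeR on library totals, edgeR with no filter on low counts, limma 3.58.1 on log2 TPM with pseudocounts of 1 and 0.1 (TPM of at least 1 in 2 libraries, or no filter), Ensembl transcripts alone, the replicate number as a block, and each library left out.

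The members and the lists were chosen with earlier results of these data known. Text names the 6 members, up to 2 rises and 2 falls per list (called genes with the largest changes), the listed genes nearest the cluster, and the 3 genes nearest each member, leaving out numbered clones and pseudogenes. A gene that this rule names is not reported here. Of the transcripts with at least 10 counts, those called and the 2 most counted per gene are named, a choice made after values were seen, as were the other names among genes inside the cluster and markers. Counting limits cover counting error alone.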

Additional observations from a re-analysis of the deposited data

How the results depend on the processing

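For the 6 genes, each direction held under every alternative run. The calls that were lost were Meg3 under DESeq2 and the 3 limma settings and Dio3 under limma without a filter, where the log2 fold change was -0.73. TPM moved the median log2 fold change of all genes by 0.161, and called genes were 66.4% higher under limma against 50.9% in the main test. Library totals gave 59.2% higher. Rtl1 could not be tested with Ensembl transcripts alone.

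Counts of calls moved at the transcript level. Over all transcripts edgeR called 1845, DESeq2 called 11347, and edgeR called 0 with each library left out (lowest 0, highest 0). Among the transcripts of the cluster, 3 of 96 were called in the main test, 8 of 125 without the filter and 20 of 96 by DESeq2. Over all transcripts these were 1845 of 50163, 2694 of 94075 and 11347 of 50163. Fits with a library left out have 1 library in a group, so their calls are not set beside these. Same-numbered libraries showed almost no shared deviation from their group means (correlation 0.0065 over 16355 genes). With 2 libraries per group this cannot exclude a pairing. The replicate block left 0 transcripts called over all and 0 in the cluster (17 higher at an unadjusted p under 0.05), with 8825 genes called. The block kept the direction and call of all 6 genes. Over all genes, limma without a filter called 5219, against 8783. Of the RNAs listed inside the cluster, 1 was called with library totals, under limma on TPM, and with any library left out (1 to 1), against 2 in the main test. Of the other maternally expressed imprinted genes, 9 were called under limma, and of the miRNA processing genes, 4 (without rfISCs replicate 2) to 8 with a library left out. The paternal ratio was 1.92 in deposited TPM, 1.80 with library totals and 1.30 with Ensembl transcripts alone. With Ensembl transcripts alone the maternal share differed by 0.039 percentage points, and both quantities overlapped between the states.

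Some named genes and transcripts reversed. Ddx17 was at 0.0040 under limma with either pseudocount or no filter. Wdr25 was at -0.28 under limma with a pseudocount of 1, with or without a filter, at -0.33 with 0.1, and at -0.030 with Ensembl transcripts alone. With Ensembl transcripts alone Zfp264 was at 0.86 and Dicer1 at -0.40. The Dio3 transcript ENSMUST00000097228 was at 1.08 with the replicate block and at -1.47 to 6.88 with a library left out, the lowest without ESCs replicate 1 and the highest without ESCs replicate 2. The cause was not tested. Dlk1, Dio3 and Dio3os rest on few counts, which limits how closely their fold changes are known.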
